A study of Homo sapiens with 6 samples.

Results

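Integrins and laminins were followed at the RNA level in MDA-MB-231, an established line of triple-negative breast cancer, and in a pair of its derivatives resistant to inhibitors of the kinase mTOR. Their members were the protein-coding genes whose names start with ITGA, and ITGB1 to ITGB8 and the laminin chains LAMA, LAMB and LAMC. All 38 were found among the 69292 gene rows, 26 integrin subunits and 12 laminin chains, and 29 of them passed the filter on low counts. The parental cells (MDA-MB-231-WT) had no drug by the protocol and DMSO by the sample labels. The everolimus-resistant derivative (DR_EVE) had been kept for months in 20 µM everolimus, and the ridaforolimus-resistant derivative (DR_RIDA) in 30 µM ridaforolimus. Both drugs are analogs of rapamycin. Each group had 2 polyadenylated RNA libraries, and all 3 groups share the line, the medium and the label of a mesenchymal stem-like tumour cell. Each resistant group is 1 derivative kept in its drug, so resistance, exposure and drift in culture cannot be told apart. The labels do not say that the libraries of a group came from separate cultures, so p-values measure the spread between these libraries, which may be technical.

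Integrins are heterodimers of an α and a β chain that span the cell membrane, bind matrix proteins or other cells outside and recruit talin, kindlin and kinases to their tails inside. Laminins are trimers of an α, a β and a γ chain and are part of basement membranes. Laminin-332, which holds the LAMA3 and LAMB3 chains, is the epithelial laminin bound by integrins α3β1 and α6β4, and the latter anchors hemidesmosomes through plectin.

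Total counts ranged from 13134567 to 15556246 per library, and 1 count was worth 0.0661 to 0.0764 CPM (counts of a gene scaled to the size of the library). The labelled identity held in part. The mesenchymal genes VIM and CD44 were at 302 to 646 and 134 to 425 CPM and CDH1, the epithelial cadherin, at 0 to 0.229 CPM, while SPARC was at 0.0704 to 1.02 CPM and the keratin KRT8 at 263 to 428 CPM. ESR1 and PGR, the hormone receptors, were below 1 CPM in every library and ERBB2 was at 44.3 to 62.9 CPM. The first principal component held 36.1% of the variance and separated the ridaforolimus line (scores of 36.4 and 73.2) from all other libraries (-33.7 to -22.1). On the second component everolimus replicate 2 (-59.8) lay far from everolimus replicate 1 (13.8). There the parental libraries were at 48.4 and 11.5 and the ridaforolimus ones at -20.2 and 6.3.

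The libraries of a group differed more in these genes than in most. Their share of all counts was 0.823% and 0.637% in the parental cells, 0.812% and 0.484% in the everolimus line, and 0.746% and 1.07% in the ridaforolimus line. Among the 20 members at a mean of at least 10 CPM, 3 differed by over 1.5-fold between the parental libraries, 14 between the everolimus and 9 between the ridaforolimus libraries. The same share over all 10300 genes at that level was 4.5%, 20.7% and 18.5%. Of the 20 members, 17 were higher in parental replicate 1 than in replicate 2 (4657 of the 10300 genes) and 18 were higher in everolimus replicate 1 than in replicate 2 (4371 of 10300). In the ridaforolimus line 16 were higher in replicate 2 than in replicate 1 (4474 of 10300).

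Compared per length, as CPM per kilobase of merged exons averaged over the 6 libraries, a few chains dominated. The exons of all annotated transcripts were merged. Which transcripts were present was not tested, so the order of the genes may depend on it. LAMA5 (161), LAMB3 (153), ITGA3 (122) and ITGB1 (112) led, followed by LAMC1 (49.1), LAMB2 (46.1) and ITGB5 (38.1). Then came LAMB1 (28.9), ITGA6 (28.1), ITGA2 (27.4), ITGAV (19.3), ITGA10 (19), ITGA5 (17.5), LAMA3 (13.7) and ITGB4 (12.3). LAMB1, ITGA6 and ITGA2, which follow each other in this order, overlapped over the 6 libraries, while all libraries of ITGB1 were above those of LAMC1. At the other end, 9 members were not tested: ITGA4, ITGA8, ITGA9, ITGAD, ITGAL, ITGAM, ITGB6, LAMA4 and LAMB4 had 1 to 43 counts in all 6 libraries together and at most 1.32 CPM in any of them.

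**Figure D1:**
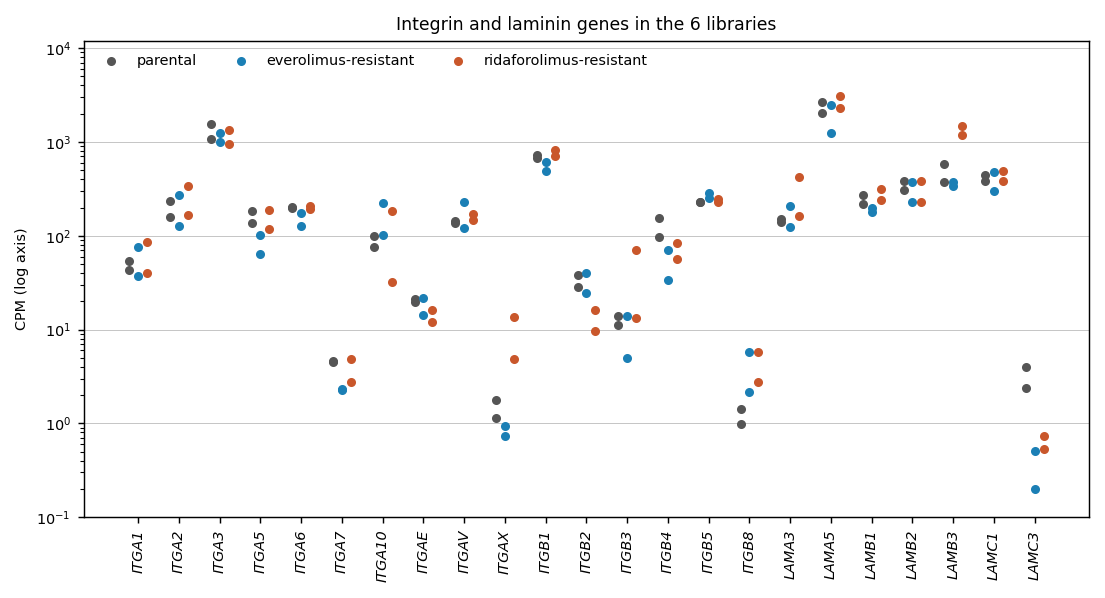
CPM on a log axis for the integrin and laminin genes described here, with 1 point per library and the groups in grey (parental), blue (everolimus-resistant) and orange (ridaforolimus-resistant). LAMA5 and ITGA3 are near the top in all libraries, and LAMB3 and ITGAX are the genes whose orange points both lie above all others.

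Few members passed the threshold, an adjusted p under 0.05 in edgeR's quasi-likelihood test over the 21223 genes tested. In the everolimus line against parental cells 0 of 29 passed, where 0.00471% of all genes did. There 5 members (17.2%) had an unadjusted p under 0.05 against 8.79% of all genes, 1 of them higher (all genes 4.26%) and 4 lower (4.53%). DESeq2 called 1 member and 0.751% of all genes, and limma-voom called 0 members and 0.00471% of all genes. In the ridaforolimus line against parental cells 0 of 29 passed, where 0.32% of all genes did. There 7 members (24.1%) had an unadjusted p under 0.05 against 14.5% of all genes, 5 of them higher (all genes 7.35%) and 2 lower (7.17%). DESeq2 called 4 members and 3.07% of all genes, and limma-voom called 0 members and 0.339% of all genes. Between the lines LAMB3 and ITGAX passed, both higher in the ridaforolimus line, where 0.744% of all genes passed. There 7 members (24.1%) had an unadjusted p under 0.05 against 14.1% of all genes, 6 of them higher (7.58%) and 1 lower (6.56%), and DESeq2 called 3 members and 3.36% of all genes. Here limma-voom called 1 member and 0.532% of all genes. A test of any difference among the 3 groups called LAMB3 alone, against 0.499% of all genes, and DESeq2 called 4 members against 4.16%. Groups did not overlap for 13 members in each comparison (44.8%), against 41.1%, 49.4% and 41.2% of all genes. In the everolimus line 4 of these were higher and 9 lower than in parental cells (all genes 20.6% and 20.5%), in the ridaforolimus line 6 and 7 (25.1% and 24.3%), and in the ridaforolimus against the everolimus line 9 and 4 (20.9% and 20.4%). Estimates were above 0 for 10, 16 and 20 of the 29 members, against 52.3%, 51.3% and 48.3% of all genes. The median log2 fold change of the tested members was -0.22, 0.05 and 0.33 in the 3 comparisons, where that of all genes was 0.02, 0.01 and -0.02. The 2 comparisons with parental cells share those libraries, and their values stand side by side with no measure of likeness.

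**Figure D2:**
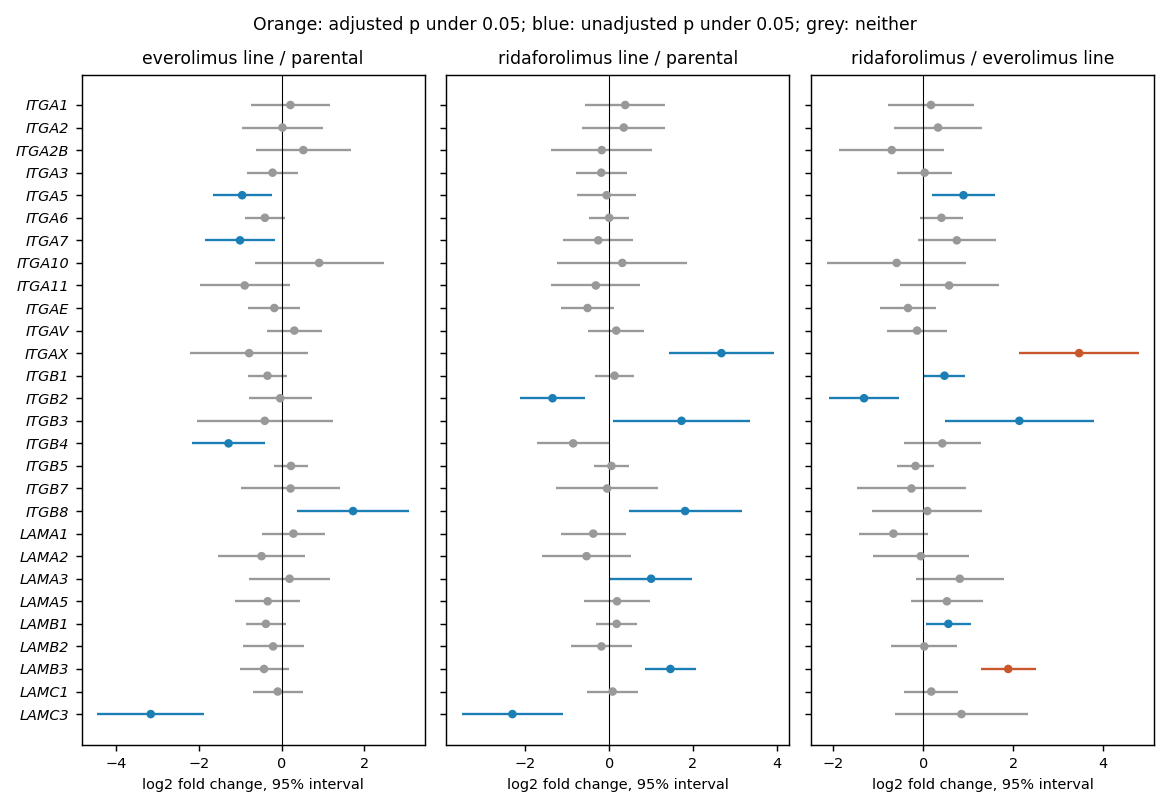
Log2 fold changes with 95% intervals for tested members in the 3 comparisons, orange where the adjusted p was under 0.05, blue where only the unadjusted p was, and grey otherwise. LAMB3 and ITGAX are the orange points, at 1.89 and 3.46 in the comparison of the lines, and LAMC3 lies farthest below 0 in both comparisons with parental cells.

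LAMB3, the β chain found only in laminin-332, was the member with the clearest difference. Its level was 586 and 372 CPM in the parental cells, 376 and 338 CPM in the everolimus line, and 1179.7 and 1462 CPM in the ridaforolimus line. Both ridaforolimus libraries were above all others, and the everolimus libraries overlapped with the parental ones. In the ridaforolimus line LAMB3 was higher than in the everolimus line by 1.89 ± 0.27 on the log2 scale (95% interval 1.28 to 2.50, adjusted p = 0.0286). Against parental cells it stood at 1.46 ± 0.26 (interval 0.86 to 2.07), short of the threshold in edgeR (adjusted p = 0.0706) and past it in DESeq2 (adjusted p = 0.000101). The everolimus line stood at -0.42 ± 0.26 (adjusted p = 0.685). The call between the lines ended without everolimus replicate 1 (adjusted p = 0.0546), everolimus replicate 2 (0.0749) or ridaforolimus replicate 2 (0.114), and in a fit to these groups alone (0.0716), while the fold change stayed between 1.74 and 1.95. LAMB3 (ENSG00000196878) lies on the minus strand of chromosome 1 (GRCh38), from 209614870 to 209652466.

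The α chain of laminin-332 pointed the same way in the ridaforolimus line, with a large gap between its libraries. LAMA3 was at 151 and 139.9 CPM in the parental cells, 209 and 124 CPM in the everolimus line, and 161 and 423 CPM in the ridaforolimus line. Only ridaforolimus replicate 2 stood clear of the rest, and the log2 fold change over parental cells of 1.00 ± 0.43 (unadjusted p = 0.0461, adjusted p = 0.336) became 0.15 without it. In the everolimus line LAMA3 stood at 0.19 ± 0.42. Per length, LAMB3 exceeded LAMA3 by 12.1- and 8.32-fold in the parental cells and 5.62- and 8.57-fold in the everolimus line. In the ridaforolimus line it did so by 22.9- and 10.8-fold, which overlapped with the parental ratios. The merged exons held 14678 bases for LAMA3 and 4688 for LAMB3. Which LAMA3 transcripts were present was not tested, and a shorter one would lower these ratios.

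LAMB3 and LAMA3 were the laminin genes whose level over parental cells in the ridaforolimus line had an unadjusted p under 0.05 and an estimate above 0, so the sequence before their starts is shown. A search of the 250 bases before each RefSeq start (GRCh38.p14) found the letters TGANTCA, the element that AP-1 factors bind, in 6.57% of 35116 promoters and in 2 of 33 promoters of 26 matched members (6.06%). TGANTCA reads the same on both strands. The members were LAMA3 and LAMB3. LAMB3 has 3 listed starts, and no match was found before the upstream ones. The match lies before the start farthest downstream, which is inside the annotated gene, while the LAMB3 counts cover the whole gene. The first line below gives chr1:209651395-209651624 on the minus strand, which ends 21 bases before that start. The other lines give 27-base stretches of LAMA3 on the plus strand, chr18:23872885-23872911 and chr18:23872941-23872967. Capitals mark the match, which begins 67 bases before the LAMB3 start and 125 and 69 bases before the LAMA3 start. Of the 250 bases searched before the LAMA3 start, 180 belong to annotated LAMA3 exons, so this search was not confined to sequence outside the transcripts. That start lies inside the gene, which spans 23689443 to 23956222 on chromosome 18, while the LAMA3 counts cover the whole gene.
LAMB3: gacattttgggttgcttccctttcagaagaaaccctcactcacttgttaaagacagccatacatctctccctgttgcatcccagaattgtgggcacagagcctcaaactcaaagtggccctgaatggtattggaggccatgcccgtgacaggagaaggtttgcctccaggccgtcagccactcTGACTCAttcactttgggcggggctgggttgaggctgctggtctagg
LAMA3, first match: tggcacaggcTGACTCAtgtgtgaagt
LAMA3, second match: cttcctcaccTGAGTCAggcaggcccg
The letters CAGACA (or TGTCTG on the other strand), part of the SMAD-binding element, were in 13.6% of all promoters and in 3 of the 33, those of ITGA5, LAMA3 and LAMA4. A match is a description of the letters and says nothing of binding in these cells.

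LAMA5, the α chain of the broadly expressed laminins of adult basement membranes, led the α chains at 2686 and 2023 CPM in the parental cells, 2496 and 1238 CPM in the everolimus line, and 2280.5 and 3087 CPM in the ridaforolimus line. The groups overlapped in all comparisons, and the fold change was -0.33 ± 0.34 in the everolimus and 0.19 ± 0.34 in the ridaforolimus line (adjusted p = 0.824 and 0.844). Without everolimus replicate 2 the first was 0.08, and without ridaforolimus replicate 2 the second was -0.04. LAMB1, a β chain of many laminins, was at 269 and 218 CPM in the parental cells, 197 and 178 CPM in the everolimus line, and 240.2 and 311 CPM in the ridaforolimus line. Both everolimus libraries were the lowest, and the ridaforolimus line exceeded the everolimus line by 0.56 ± 0.21 (unadjusted p = 0.0315, adjusted p = 0.304). LAMB2, the β chain of muscle and kidney basement membranes, was at 387 and 304 CPM in the parental cells, 374 and 226 CPM in the everolimus line, and 228 and 380.2 CPM in the ridaforolimus line, with overlapping groups and fold changes of -0.20 ± 0.32 and -0.18 ± 0.32. LAMC1, a widespread γ chain, was at 440.3 and 386 CPM in the parental cells, 478 and 297 CPM in the everolimus line, and 386 and 489.9 CPM in the ridaforolimus line, again with overlapping groups (-0.09 ± 0.26 and 0.08 ± 0.26).

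LAMC3, a rare γ chain, was low throughout and lowest in the resistant lines. Its level was 3.97 and 2.39 CPM in the parental cells, 0.507 and 0.198 CPM in the everolimus line, and 0.534 and 0.731 CPM in the ridaforolimus line, which is 52, 34, 7, 3, 7 and 10 reads. The parental libraries were above all others. Against parental cells the everolimus line stood at -3.16 ± 0.56 (95% interval -4.45 to -1.86, adjusted p = 0.205, and 0.0102 in DESeq2) and the ridaforolimus line at -2.31 ± 0.52 (interval -3.51 to -1.11, adjusted p = 0.122, and 0.0422 in DESeq2). LAMC3 met the filter through its parental libraries, while 0 everolimus libraries and 1 ridaforolimus library reached the level the filter asks for, so a gene kept in this way had to be lower in the lines. LAMA1 and LAMA2, α chains of embryonic and muscle laminins, were at 1.97 to 3.77 and 1.85 to 5.27 CPM, and neither had an unadjusted p under 0.05 in any comparison.

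These levels translate into the make-up of the α and β chain classes. Among β chains, counted per kilobase, LAMB3 made up 58.3% and 52.7% in the parental cells, 50.5% and 56.8% in the everolimus line, and 80.0% and 76.9% in the ridaforolimus line. LAMB1 made up 15.2% to 17.8% in the parental and everolimus libraries and was 9.38% and 9.43% in the ridaforolimus ones. LAMB2 was at 25.9% to 34.3% in the former and at 10.6% and 13.7% in the latter. A share also falls when another chain rises. In CPM, LAMB1 and LAMB2 overlapped between the ridaforolimus line and parental cells. LAMA5 was the main α chain everywhere, at 88.1% to 94.4% by merged exons. LAMA3 was at 5.18% and 6.28% in the parental cells, 7.52% and 8.82% in the everolimus line, and 6.41% and 11.7% in the ridaforolimus line. A LAMA3 transcript shorter than its merged exons would raise the LAMA3 share. With 2 libraries against 2, an exact permutation test cannot give a two-sided p below 0.333, so none was run on these shares.

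**Figure D3:**
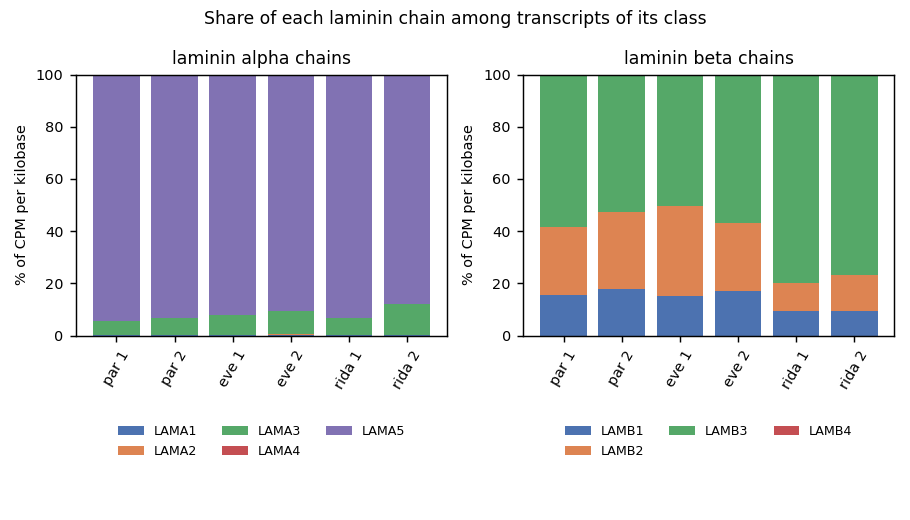
Stacked bars of the share of each laminin α and β chain in the CPM per kilobase of its class, in percent, for each of the 6 libraries. The LAMB3 part of the β chains is 80.0% and 76.9% in the ridaforolimus libraries and between 50.5% and 58.3% in the others, while LAMA5 makes up most of the α chains in all of them.

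Among the integrin subunits that bind laminin, ITGB4 was lower in both lines than in parental cells by its estimates, short of the threshold. ITGB4, the β4 chain of hemidesmosomes, was at 156 and 97.7 CPM in the parental cells, 70.5 and 34 CPM in the everolimus line, and 56.6 and 83.1 CPM in the ridaforolimus line. No library of either line reached the parental ones. Its fold changes against parental cells were -1.28 ± 0.38 for the everolimus line (95% interval -2.15 to -0.41, unadjusted p = 0.0094, adjusted p = 0.447) and -0.86 ± 0.38 in the ridaforolimus line (interval -1.72 to 0.004, unadjusted p = 0.0509, adjusted p = 0.346). They became -0.91 and -0.49 without parental replicate 1, and the first -0.85 without everolimus replicate 2. ITGA6, the only α partner of β4, was at 198 and 201 CPM in the parental cells, 127 and 175 CPM in the everolimus line, and 206 and 193 CPM in the ridaforolimus line. The ridaforolimus line stood at 0.00 ± 0.21 against parental cells (interval -0.47 to 0.48), and the everolimus line stood at -0.40 ± 0.21 (adjusted p = 0.625). Per length, ITGA6 exceeded ITGB4 by 1.32- and 2.13-fold in the parental cells, 1.87- and 5.32-fold in the everolimus line, and 3.76- and 2.41-fold in the ridaforolimus line.

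ITGA3, the α3 chain that binds laminins, had the highest level per length of the integrin α chains and was at 1546 and 1068 CPM in the parental cells, 1254 and 995 CPM in the everolimus line, and 960.4 and 1335 CPM in the ridaforolimus line. Groups overlapped (-0.22 ± 0.27 and -0.19 ± 0.27, adjusted p = 0.861 and 0.793). Its partner ITGB1, the β1 chain shared by many integrins, was at 726 and 670.3 CPM in the parental cells, 609 and 494 CPM in the everolimus line, and 714 and 813 CPM in the ridaforolimus line. The everolimus libraries were the lowest, and the ridaforolimus line stood 0.47 ± 0.20 above them (unadjusted p = 0.0489, adjusted p = 0.352). ITGA7, another laminin-binding α chain known from muscle, was at 4.51 and 4.65 CPM in the parental cells, 2.25 and 2.31 CPM in the everolimus line, and 2.74 and 4.89 CPM in the ridaforolimus line. The everolimus libraries were the lowest here too (fold change over parental cells -1.0 ± 0.37, unadjusted p = 0.027, adjusted p = 0.529).

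Collagen-binding α chains showed no difference past the threshold. ITGA2, the α2 chain, was at 236 and 159 CPM in the parental cells, 274 and 127 CPM in the everolimus line, and 166 and 337 CPM in the ridaforolimus line, and ITGA1, the α1 chain, at 54.2 and 43 CPM in the parental cells, 75.8 and 37.1 CPM in the everolimus line, and 40.1 and 86.7 CPM in the ridaforolimus line. These genes lie 30.1 kb apart on chromosome 5. In both genes everolimus replicate 1 and ridaforolimus replicate 2 were the highest libraries. ITGA10, the α10 chain of cartilage, differed widely within the resistant lines, at 98.9 and 75.9 CPM in the parental cells, 225 and 103 CPM in the everolimus line, and 32.5 and 185 CPM in the ridaforolimus line. Its fold changes of 0.91 ± 0.68 and 0.31 ± 0.68 had intervals of -0.65 to 2.47 and -1.24 to 1.86, the first was 0.24 without everolimus replicate 1, and the second turned to -1.42 without ridaforolimus replicate 2. ITGA11, the α11 chain of fibroblasts, was at 1.65 to 4.2 CPM, with no unadjusted p under 0.05.

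The fibronectin receptor chain ITGA5 was lower in the everolimus line alone by its estimate. ITGA5 was at 184 and 136 CPM in the parental cells, 101 and 64.6 CPM in the everolimus line, and 118 and 189.6 CPM in the ridaforolimus line. Its everolimus libraries were below all others, the fold change over parental cells was -0.95 ± 0.31 (interval -1.66 to -0.24, unadjusted p = 0.0148, adjusted p = 0.497), and the ridaforolimus line stood 0.89 ± 0.31 above the everolimus line (unadjusted p = 0.0199, adjusted p = 0.252), or 0.53 without ridaforolimus replicate 2. Against parental cells the ridaforolimus line stood at -0.06 ± 0.31 (interval -0.76 to 0.64).

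ITGAV, the αV chain that pairs with several β chains and binds fibronectin, vitronectin and latent TGF-beta, was at 145 and 138 CPM in the parental cells, 229.6 and 121 CPM in the everolimus line, and 148 and 171 CPM in the ridaforolimus line. Its fold changes were 0.31 ± 0.29 and 0.17 ± 0.29 (adjusted p = 0.805 and 0.831). ITGB5, its most abundant partner after β1, was nearly level over the libraries, at 229 and 230.2 CPM in the parental cells, 284 and 254 CPM in the everolimus line, and 245 and 231 CPM in the ridaforolimus line, and stood at 0.23 ± 0.18 and 0.05 ± 0.18. ITGB3, the β3 chain of the vitronectin receptor, was at 14 and 11.1 CPM in the parental cells, 14 and 5.02 CPM in the everolimus line, and 13.4 and 69.8 CPM in the ridaforolimus line. Ridaforolimus replicate 2 alone was high. The fold change over parental cells of 1.73 ± 0.71 (unadjusted p = 0.04, adjusted p = 0.32) became 0.11 without that library. In the annotation used here, 51.6% of the exon bases of ITGB3 also belong to another protein-coding gene on the same strand (AC068234.1). Of the β chains that pair with αV other than β1, ITGB5 made up 68.7% per length in ridaforolimus replicate 2 and 91.4% to 96.1% in the other libraries.

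ITGB8, the β8 chain that binds latent TGF-beta, was low and higher in both lines by its estimates. Its level was 0.993 and 1.41 CPM in the parental cells, 2.17 and 5.82 CPM in the everolimus line, and 2.74 and 5.77 CPM in the ridaforolimus line. All resistant libraries were above both parental ones. Over parental cells the estimate was 1.73 ± 0.59 for the everolimus line (95% interval 0.38 to 3.08, unadjusted p = 0.0182, adjusted p = 0.507) and 1.82 ± 0.59 in the ridaforolimus line (interval 0.46 to 3.17, unadjusted p = 0.0146, adjusted p = 0.239). Without everolimus replicate 2 the first was 0.84, and without ridaforolimus replicate 2 the second was 1.19. The lines differed by 0.09 ± 0.53 (interval -1.14 to 1.31). ITGB6, the epithelial β6 chain that also activates TGF-beta, was not tested and was at 0.0724 to 0.686 CPM.

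**Figure D4:**
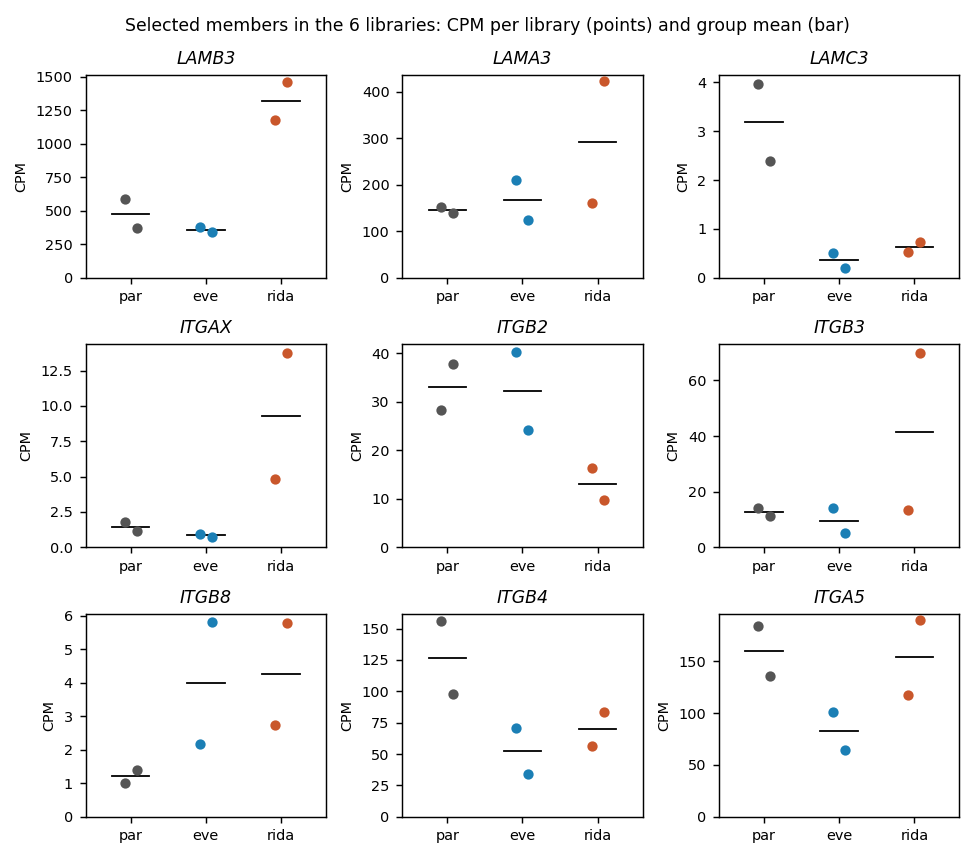
CPM in each library (points) and group mean (bar) for selected integrin and laminin genes, on linear axes that start at 0, with parental (par), everolimus-resistant (eve) and ridaforolimus-resistant (rida) cells from left to right. The ridaforolimus points of LAMB3 and ITGAX lie above all others, those of ITGB2 lie below, and those of LAMA3 and ITGB3 are far apart.

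Of the integrins best known from white blood cells, ITGAX was higher in the ridaforolimus than in the everolimus line. ITGAX, the αX chain (CD11c) of dendritic cells and macrophages, was at 1.76 and 1.13 CPM in the parental cells, 0.942 and 0.727 CPM in the everolimus line, and 4.8 and 13.7 CPM in the ridaforolimus line. Both ridaforolimus libraries were above all others. ITGAX was higher in the ridaforolimus than in the everolimus line by 3.46 ± 0.58 (interval 2.14 to 4.79, adjusted p = 0.0461). Against parental cells it stood at 2.68 ± 0.55 (adjusted p = 0.0983, and 0.00101 in DESeq2) and, in the everolimus line, at -0.78 ± 0.62. The call between the lines was lost in limma-voom (adjusted p = 0.0973), in a fit to these groups alone (0.121) and without any 1 library other than ridaforolimus replicate 1 (0.0835 to 0.146), and without ridaforolimus replicate 2 the difference was 2.53 between the lines and 1.74 over parental cells. ITGAX (ENSG00000140678) lies on chromosome 16 at 31355134 to 31382997, between ITGAM and ITGAD, which had 7 and 43 reads over the 6 libraries.

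ITGB2, the β2 chain (CD18) that pairs with αX in leukocytes, was at 28.2 and 37.8 CPM in the parental cells, 40.4 and 24.3 CPM in the everolimus line, and 16.2 and 9.64 CPM in the ridaforolimus line. Both ridaforolimus libraries were below all others, at -1.35 ± 0.34 against parental cells (interval -2.14 to -0.57, unadjusted p = 0.004, adjusted p = 0.155, and 0.0165 in DESeq2) and -1.32 ± 0.34 against the everolimus line (adjusted p = 0.142, and 0.0197 in DESeq2). ITGAE, the αE chain of epithelial lymphocytes, was at 20.9 and 19.5 CPM in the parental cells, 14.2 and 21.6 CPM in the everolimus line, and 16.2 and 12.1 CPM in the ridaforolimus line (-0.52 ± 0.27 in the ridaforolimus line, adjusted p = 0.432). ITGB7, its β partner, and ITGA2B, the platelet αIIb chain, were at 2.25 to 6.09 and 0.731 to 1.59 CPM with no unadjusted p under 0.05, and 42.1% of the exon bases of ITGB7 overlap a gene on the other strand. The defining lymphocyte markers were near or at 0: CD3E and MS4A1 were at 0 in every library, and PTPRC, the common leukocyte antigen, at 0 to 0.511 CPM, while the macrophage genes CD14, CSF1R and CD68 were at 0.331 to 2.14, 2.25 to 4.93 and 0.0704 to 0.859 CPM. TIE1, a receptor of endothelial cells, was the 1 gene past the threshold of 4 tested endothelial markers (4.15 ± 0.46 in the ridaforolimus line, adjusted p = 0.0145), where 0.32% of all genes passed. Of the others, PECAM1 was at 0.457 to 11.5 CPM (-1.72 ± 0.86, adjusted p = 0.403), KDR at 0.198 to 4.89 CPM (0.30 ± 0.69) and VWF at 0.458 to 1.3 CPM (1.11 ± 0.50), and CDH5 and TEK, not tested, were at 0 to 0.382 and 0.229 to 0.95 CPM. Of the platelet genes PF4, PPBP and GP9 were at 0 in every library and GP1BA was at 7.96 to 18 CPM. Of the fibroblast and muscle genes LUM was at 0 in every library, DCN at 0 to 0.153, PDGFRB at 0.0704 to 1.23, ACTA2 at 1.2 to 4.02, DES at 1.38 to 3.8 and MYH11 at 13.9 to 17.5 CPM. The part of other cells in the values of ITGAX was not tested. In bulk RNA a smaller share of cells and less RNA per cell cannot be told apart.

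Genes that work with these receptors were read from lists chosen with earlier results of the data known. Of 35 tested integrin adaptors and kinases, TNS1 rose and TNS4 fell past the threshold in the ridaforolimus line, where 0.32% of all genes passed. In the everolimus line 0 passed (all genes 0.00471%), and between the lines 0 passed (all genes 0.744%). An unadjusted p under 0.05 was found for 8 in the everolimus line (22.9%, all genes 8.79%), 10 in the ridaforolimus line (28.6%, all genes 14.5%) and 11 between the lines (31.4%, all genes 14.1%). Tensins link β tails to actin. TNS4, which lacks the actin-binding part, was at 194 and 188 CPM in the parental cells, 52 and 46 CPM in the everolimus line, and 18.9 and 30.8 CPM in the ridaforolimus line, a fold change of -2.94 ± 0.26 in the ridaforolimus line (adjusted p = 0.0109), and TNS1 at 3.13 and 3.31 CPM in the parental cells, 3.91 and 11.3 CPM in the everolimus line, and 35.1 and 32.6 CPM in the ridaforolimus line (3.39 ± 0.46, adjusted p = 0.029). Other anchors of the list did not pass. Talin (TLN1) stood at -0.04 ± 0.19 and -0.25 ± 0.19 in the everolimus and ridaforolimus lines, vinculin (VCL) at 0.12 ± 0.26 and -0.01 ± 0.26, focal adhesion kinase (PTK2) at 0.15 ± 0.18 and 0.01 ± 0.18, and paxillin (PXN) at -0.48 ± 0.20 and -0.11 ± 0.20. ILK, the integrin-linked pseudokinase, was at 1.96 to 3.80 CPM, and 78.5% of its exon bases overlap genes on the other strand in the annotation used here. Its estimates were -0.18 ± 0.43 and 0.11 ± 0.43. The median fold change of the list was -0.06 in the everolimus and -0.03 in the ridaforolimus line.

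Basement membrane partners of laminins had 18 tested genes, of which the matrix peroxidase PXDN fell in the ridaforolimus line (-1.83 ± 0.21, adjusted p = 0.0158) and was lower there than in the everolimus line (-1.47 ± 0.21, adjusted p = 0.0286), while 0 passed in the everolimus line. Over all genes 0.32% passed in the ridaforolimus line, 0.744% between the lines and 0.00471% in the everolimus line. An unadjusted p under 0.05 was seen for 3 in each line against parental cells (16.7%, all genes 8.79% and 14.5%) and for 7 between the lines (38.9%, all genes 14.1%). PXDN was at 298 and 304 CPM in the parental cells, 257 and 214 CPM in the everolimus line, and 75.2 and 94 CPM in the ridaforolimus line. NID1, which joins laminin to collagen IV, was at 1.3 and 0.704 CPM in the parental cells, 0.652 and 0.264 CPM in the everolimus line, and 1.83 and 4.68 CPM in the ridaforolimus line (1.70 ± 0.60 in the ridaforolimus line, adjusted p = 0.269). COL4A1, a collagen IV chain, stood at -0.54 ± 0.18 and -0.11 ± 0.18. The hemidesmosome proteins plectin (PLEC), dystonin (DST) and collagen XVII (COL17A1) stood at 0.16 ± 0.21, -0.08 ± 0.20 and 0.33 ± 0.30 in the everolimus line and at 0.23 ± 0.21, 0.04 ± 0.20 and 0.72 ± 0.30 in the ridaforolimus line. The tetraspanin CD151, a partner of laminin-binding integrins, stood at -0.25 ± 0.19 and 0.23 ± 0.19. The list's median was -0.26 in the everolimus line, 0.20 in the ridaforolimus line and 0.46 between them.

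Among 23 tested integrin ligands other than laminins, 0 passed in the everolimus line (all genes 0.00471%) or the ridaforolimus line (all genes 0.32%) against parental cells. There 3 in the everolimus line (13%, all genes 8.79%) and 4 in the ridaforolimus line (17.4%, all genes 14.5%) had an unadjusted p under 0.05, and between the lines 4 did (17.4%, all genes 14.1%). EDIL3, a secreted ligand of αV integrins, was lower in the ridaforolimus than in the everolimus line (-1.87 ± 0.31, adjusted p = 0.0422), where 0.744% of all genes passed. EDIL3 was at 99.5 and 112 CPM in the parental cells, 119.8 and 87.3 CPM in the everolimus line, and 20 and 36.7 CPM in the ridaforolimus line. Fibronectin (FN1) was at 1363 and 1081 CPM in the parental cells, 2827 and 2346 CPM in the everolimus line, and 1204 and 5286 CPM in the ridaforolimus line, with fold changes of 1.08 ± 0.56 and 1.41 ± 0.56 (adjusted p = 0.623 and 0.306). Ridaforolimus replicate 1 lay within its parental range. TGFBI, a matrix protein induced by TGF-beta, stood at 0.77 ± 0.27 and 1.60 ± 0.27 (adjusted p = 0.507 and 0.0621). The median of the list was -0.16 and 0.11. Of 12 tested laminin receptors that are not integrins 0 passed in any comparison. All genes stood at 0.00471% in the everolimus line, 0.32% in the ridaforolimus line and 0.744% between the lines. An unadjusted p under 0.05 was seen for 1 in the everolimus line (8.33%, all genes 8.79%), 6 in the ridaforolimus line (50%, all genes 14.5%) and 4 between the lines (33.3%, all genes 14.1%). Their medians were 0.04, -0.32 and -0.17, with dystroglycan (DAG1) at -0.05 ± 0.17 and -0.42 ± 0.17 and the Lutheran antigen (BCAM) at -0.08 ± 0.28 and -0.74 ± 0.28.

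The drugs carry different groups on the same hydroxyl of rapamycin: everolimus has a hydroxyethyl ether there and ridaforolimus a dimethylphosphinate. Since the doses were 20 and 30 µM, the differences between the lines given above are not matched for dose. Some abundant members had an unadjusted p between the lines above 0.05. The interval of the difference was -0.59 to 0.64 for ITGA3, -0.27 to 1.32 for LAMA5, -0.43 to 0.78 for LAMC1, -0.72 to 0.76 for LAMB2 and -0.59 to 0.24 for ITGB5, which leaves room for differences of these sizes.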

How the data were processed

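RNA was sequenced from 6 polyadenylated libraries (TruSeq Stranded mRNA, per the labels), 2 for each of 3 groups. The deposited table holds the authors' raw counts of reads per gene, not normalized. The submitters' processing notes list GRCh38, DESeq2, HTSeq 0.13.5, STAR 2.7.9a and Trim Galore 0.6.6. The annotation release and the strand of counting were not given in the sources used here, so reads of overlapping genes may be split, shared or lost. Groups and replicate numbers came from the labels. The members and gene lists were chosen with earlier results of these data known.

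Counts of all 69292 genes were filtered (filterByExpr) and scaled by TMM. edgeR 4.0.16 (R 4.3.3) fitted 1 quasi-likelihood model to the 3 groups, with 3 residual degrees of freedom, and p-values were adjusted over 21223 genes by Benjamini-Hochberg. Fold changes are log2 ± SE with 95% intervals, and tests are two-sided. Lengths, positions and overlaps came from GENCODE 29 and promoters from RefSeq. The model was tested on simulated data. Alternatives were DESeq2 1.42.0, limma-voom 3.58.1, RLE scaling, other filters, a replicate block, fits to the compared groups alone and leaving out each library. Library values are given for members at a mean of at least 10 CPM, or at 1 CPM or more with an unadjusted p under 0.05 in any test. Of other lists, genes past the threshold and a set of anchor genes chosen for their roles are named. A member and a marker gene are not reported here, though counts over the lists include them.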

Additional observations from a re-analysis of the deposited data

Results flagged for a closer look

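LAMB3 and ITGAX differed between the resistant lines in a direct test of the lines against each other. LAMB3 was 1.89 higher on the log2 scale in the ridaforolimus line (edgeR adjusted p = 0.0286), and ITGAX was 3.46 higher (adjusted p = 0.0461). In both cases both ridaforolimus libraries were above both everolimus libraries, as in 20.9% of all genes. Both calls were lost with a replicate block and in a fit to these groups alone. The drug, its dose and the derivative differ together between the lines and cannot be told apart. Groups of 2 libraries were too small to look for a library that stands apart.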

How the results depend on the processing

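Counts of called members moved with the tool and the filter, and the cause was not tested. For the 5 CPM filter, the replicate block, the fit to the compared groups alone and left-out libraries, all genes were not set beside them. Whether member counts there followed a change over all genes was not tested. With no low-count filter 5 members were called in the everolimus line, 9 in the ridaforolimus line, 7 between the lines and 11 among the 3 groups, where 493, 1195, 1362 and 1961 of all genes were called. That fit took in all 38 members and every gene except the 28459 of 69292 that had no count. DESeq2 called 1, 4 and, among the 3 groups, 4. Between the lines limma-voom called 1 (0.532% of all genes) and the fit to those groups alone 0. With at least 5 CPM in 2 libraries 1 was called between the lines and 0 among the 3 groups. Members with an unadjusted p under 0.05 then numbered 3 in the everolimus line, 3 in the ridaforolimus line and 5 among the 3 groups. With no filter they numbered 11 between the lines, where 4531 of all genes had such a p. Leaving out 1 library at a time gave 0, 0 to 1, 0 to 2 and 0 to 2 called members in the 4 tests, and 1 to 6, 4 to 10, 4 to 12 and 5 to 13 with an unadjusted p under 0.05. Same-numbered libraries deviated together between parental and everolimus cells (r = 0.33 over 21223 genes) and apart in the other pairs (-0.17 and -0.19). With 2 libraries per group these values cannot settle whether the numbers pair the samples, and the main model did not use them. The replicate block gave 0 called members between the lines and 0 among the 3 groups (adjusted p = 0.0679 for LAMB3 and 0.0913 for ITGAX between the lines). Of 926 alternative fold changes of 24 members, 829 kept their sign and side of the threshold, 56 changed sign (50 with a library left out), 28 passed the threshold only in the alternative and 13 only as reported. A library left alone in its group is assumed to vary like the others. At 0.0661 to 0.0764 CPM a count, members under 1 CPM rest on few reads.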
